A study of Mus musculus with 9 samples.

Results

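The proteasome is the protease that degrades proteins marked with ubiquitin, and the genes of its subunits carry symbols that begin with Psma to Psmg in the mouse. All gene symbols of the deposited expression table, with joined names split at the comma, were searched for these letters followed by a digit, which found 49 genes among 27095 loci. Of these, 19 symbols belong to the core particle (Psma, Psmb), 21 to the regulatory particle (Psmc, Psmd) and 9 to activators, an inhibitor and assembly factors (Psme, Psmf1, Psmg). Among the 21, Psmc3ip is a meiotic recombination factor that matches by its name only. RNA was sequenced from wild type fetuses on gestational day 17, of strain C57BL/6 by the labels and C57BL/6J by the methods. Control fetuses came from dams injected with lactated Ringer's solution on gestational day 7, and exposed fetuses from dams injected intraperitoneally with 2.9 g/kg EtOH on the same day. Exposed offspring were scored for ocular and cortical patterning defects and sorted into those without such defects, EtOH-exposed unaffected, and those with them, EtOH-exposed affected, with 3 animals in each of the 3 groups. By the labels the tissue was fetal brain and by the methods cortex, and the sex and litter of the sequenced fetuses are not given in the sources used here. The paper reports that most affected samples of the study were female, and the part of sex in the values was not tested.

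The values are FPKM, fragments divided by the exon length of a gene and by the library's mapped fragments. The table holds a single value for each locus in a group, made by the authors' software from its 3 animals. The values carry no error between animals and no depth of single libraries, so no p-value, SD or counting interval is given, and whether a difference exceeds the spread between littermates or litters is not known from them. Differences are log2 ratios of group FPKM. A gene is called lower or higher when its FPKM in the groups differ by a ratio above 5 to 4, which is 0.32 on the log2 scale, and the share of all 15548 loci with a mean FPKM of at least 1 that pass the same limit is given as the background. The affected group enters both of its comparisons and the control group both of its own, so the comparisons are not independent. In bulk tissue, fewer cells of a type and less RNA per cell cannot be told apart.

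The core particle is a barrel of stacked rings, in which the outer alpha rings gate the entry and the inner beta rings hold the proteolytic sites. The regulatory particle caps the barrel. Its base unfolds substrates with a ring of ATPases, and its lid removes the ubiquitin chain. Immune cells and cells exposed to interferon replace the catalytic beta subunits with the immunoproteasome subunits, and dedicated chaperones put both particles together. In mammals the subunit genes are known to be induced together when proteasome activity is impaired, through Nfe2l1, a factor that is itself degraded by the proteasome and that binds the antioxidant response element.

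Stretches of promoter that carry 3 of the motifs searched are shown first, as examples of the sequence at the start sites of these genes. They were read from RefSeq promoters of the GRCm38.p6 assembly, from 250 bases before to 50 bases after the start site, and 41 of the 49 genes matched with 44 promoters. The stretches run 5′ to 3′ on the strand of the gene and end at or before the start site, and the capitals mark the motif or its complement. The antioxidant response element core, TGACNNNGC, lay in the 50 bases before the start site in Psmb5, Psmb6 and Psmd9, and is shown for the catalytic genes Psmb5 (chr14:54618009-54618067, minus strand) and Psmb6 (chr11:70525323-70525356, plus strand). The CCAAT box is shown for the alpha ring gene Psma7 (chr2:180042631-180042685, minus strand) and the beta ring gene Psmb3 (chr11:97703366-97703420, plus strand). The ETS core, CCGGAAG, is shown for the base genes Psmc6 (chr14:45329699-45329755, plus strand) and Psmd2 (chr16:20651601-20651651, plus strand), the lid gene Psmd11 (chr11:80428579-80428614, plus strand) and the activator Psme4 (chr11:30771697-30771753, plus strand).
Psmb5: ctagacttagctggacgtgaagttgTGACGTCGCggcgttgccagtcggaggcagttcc
Psmb6: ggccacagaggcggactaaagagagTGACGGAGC
Psma7: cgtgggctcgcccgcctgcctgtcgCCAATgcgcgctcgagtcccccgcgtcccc
Psmb3: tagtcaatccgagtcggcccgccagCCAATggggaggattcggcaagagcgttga
Psmc6: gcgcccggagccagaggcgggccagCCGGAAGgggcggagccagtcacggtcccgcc
Psmd2: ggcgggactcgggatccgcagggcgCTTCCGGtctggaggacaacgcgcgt
Psmd11: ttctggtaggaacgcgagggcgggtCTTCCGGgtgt
Psme4: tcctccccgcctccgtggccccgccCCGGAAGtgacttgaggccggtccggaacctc

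Counted over both strands, CCGGAAG was in the promoters of 15 proteasome genes, of which 10, Psmc3ip included, were among the 18 regulatory genes with a promoter, 4 among the 8 activator and assembly genes, and 1, Psma6, among the 15 core genes. It was present in 36.4% of the 44 promoters and in 8.86% of all 32851 promoters. The CCAAT box was in 8 of the 15 core genes and 6 of the 18 regulatory genes, and at 34.1% its share in the promoters of proteasome genes was near the 37.4% of all promoters. TGACNNNGC was in 6 genes, Psmb5, Psmb6, Psmc6, Psmd9, Psmd12 and Psme4, which makes 13.6% of the promoters against 12.4% of all. A total of 7 motifs was searched. The remaining 4 were TGANNNNGC, which contains every TGACNNNGC, in 59.1% against 41.3%, the GC box GGGCGG in 54.5% against 35.7%, GCATGCGC in 6.82% against 2.71%, and AAGATGGC in 6.82% against 2.75%. A match describes the letters and no bound factor, and the expression of genes with and without a motif was not compared.

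Of the 49 genes, 45 had a mean FPKM of at least 1 over the 3 groups. These were 15 core, 21 regulatory and 9 other genes. The 4 below it were Psmb8 and Psmb9 of the immunoproteasome, Psma8, an alpha subunit of the testis, and Psmb11, the beta subunit of the thymic cortex. The authors' value for Psma8 was 0.190 FPKM in controls, 0.165 in unaffected and 0.129 in affected offspring. Psmb11 was at 0.0787, 0.0811 and 0.0731 FPKM in the same order. Both tissue-restricted subunits were thus near 0 in every group, as far as the group values go.

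In affected offspring most proteasome genes had FPKM below those of both other groups, although fewer than 1 in 3 passed the limit against controls, and in unaffected offspring most had FPKM slightly above controls. Against controls, 39 of the 45 genes had a log2 ratio below 0, 13 were lower past the limit and 0 were higher, where 11.5% of all loci were lower and 12.5% higher. Against unaffected offspring, 40 of 45 were below 0, 27 were lower past the limit and 1, Psme4, was higher, where 18.4% of all loci were lower and 20.6% higher. The 13 genes make 28.9% of the 45, and the 27 make 60.0%. Between unaffected and control offspring, 43 of 45 were above 0, but only Psmb5 passed the limit as higher and 0 genes as lower, where 5.52% and 6.97% of all loci did. The order unaffected, control, affected from high to low was found in 39 of the 45 genes and in 30.9% of all loci. The median log2 ratio of the 45 genes was −0.23 against controls and −0.36 against unaffected offspring, while that of all loci was 0.02 and 0.01.

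**Figure D1:**
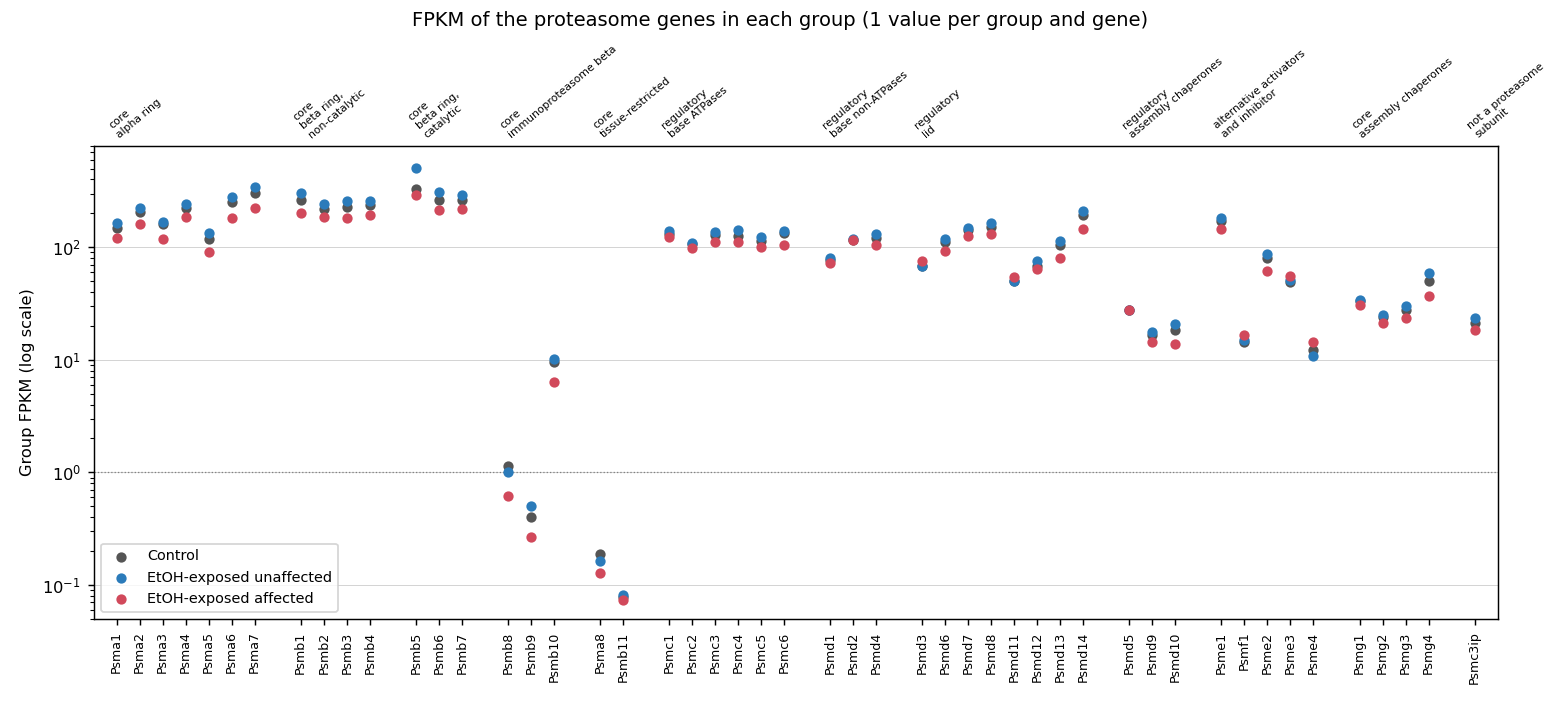
FPKM of the 49 proteasome genes, on a log axis, in controls and in unaffected and affected EtOH-exposed offspring, ordered by role, with 1 point per group and gene and a dotted line at 1 FPKM. The affected group is the lowest of the 3 points throughout the alpha and beta rings, and the immunoproteasome subunits Psmb8 and Psmb9 lie near or below 1 FPKM.

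The genes of the core particle stood higher than those of the regulatory particle in every group. The median FPKM of the 15 core genes was 226 in controls, 259 in unaffected and 187 in affected offspring, and that of the 21 regulatory genes was 111, 119 and 97.5. The ratio of these medians was 2.04 in controls, 2.18 in unaffected and 1.92 in affected offspring. It was 2.00, 2.11 and 1.80 when the 14 constitutive core genes were set against the 17 genes of the finished regulatory particle, without the chaperones Psmd5, Psmd9 and Psmd10 and without Psmc3ip. FPKM is scaled to length, so levels of different genes can be set side by side, within the limits of the gene models.

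The 7 alpha ring genes, which form the outer rings and the gate, were each lower in affected offspring than in either other group. Psma6 had the largest difference of the ring from controls, with 255 FPKM in controls, 277 in unaffected and 183 in affected offspring, and log2 ratios of −0.47 against controls and −0.60 against unaffected offspring. Psma7 was at 301, 343 and 225 FPKM, and Psma3 at 160, 169 and 118. In each of these genes the affected value was the lowest. Psma5 was at 119, 133 and 90.5 FPKM and was the least abundant gene of the ring. Psma1, Psma2 and Psma4 ranged from 121 to 187 FPKM in affected offspring and from 149 to 223 in controls. Against controls 5 of the 7 were lower past the limit, with Psma1 at −0.30 and Psma4 at −0.25 short of it, and against unaffected offspring all 7 were, where 11.5% and 18.4% of all loci were lower. The locus given for Psma6 spans 343444 bases on chromosome 12 and holds 6 other coding genes, so its value depends on how the authors' software assigned fragments there.

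The 4 beta ring genes without catalytic activity, Psmb1, Psmb2, Psmb3 and Psmb4, had a median log2 ratio of −0.31 against controls and −0.47 against unaffected offspring. Psmb1 was at 265 FPKM in controls, 302 in unaffected and 203 in affected offspring, and was the only gene of the 4 past the limit against controls. Psmb3 was at 226, 259 and 181 FPKM, with a log2 ratio of −0.32 that just missed it. Psmb2 and Psmb4 were at 187 and 193 FPKM in affected offspring against 220 and 236 in controls. All 4 were past the limit against unaffected offspring, and of all loci 11.5% and 18.4% were lower in these comparisons.

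The constitutive catalytic subunits were lower in affected offspring, but 0 of 3 passed the limit against controls, where 11.5% of all loci were lower. Against unaffected offspring all 3 passed it, where 18.4% of all loci were lower. Psmb6, the caspase-like subunit, was at 265 FPKM in controls, 307 in unaffected and 214 in affected offspring, with log2 ratios of −0.31 and −0.52 against the 2 other groups. Psmb7, the trypsin-like subunit, was at 263, 293 and 218 FPKM, with −0.27 and −0.42. Psmb5, the chymotrypsin-like subunit, was at 329, 501 and 290 FPKM, with −0.19 against controls and −0.79 against unaffected offspring. Psmb5 therefore stood apart through its unaffected value, which was higher than the control value by 0.61 on the log2 scale, where the other 13 constitutive core genes ranged from 0.08 to 0.22. The table gives Psmb5 as a joined locus with the microRNA gene Mir686, which lies on the same strand within it, and the values of the 2 genes cannot be told apart. With Psmb5 the highest constitutive core gene had 2.76 times the FPKM of the lowest in controls, 3.78 times in unaffected and 3.20 times in affected offspring, and without it 2.52, 2.58 and 2.48 times.

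The immunoproteasome subunits were scarce. Psmb10, the counterpart of Psmb7, was at 9.57 FPKM in controls, 10.2 in unaffected and 6.41 in affected offspring, and its log2 ratio of −0.58 against controls was the lowest of the 45 genes. Psmb8, the counterpart of Psmb5, was at 1.14, 1.00 and 0.616 FPKM. Psmb9, the counterpart of Psmb6, was at 0.398, 0.504 and 0.267 FPKM, and it shares exon bases with Tap1 on the opposite strand. The affected value was the lowest in all 3 genes. Psmb7 stood 27.5 times above Psmb10 in controls, 28.6 times in unaffected and 34.1 times in affected offspring. The 3 immunoproteasome genes together made up 1.28% of the summed FPKM of the catalytic genes in controls, 1.06% in unaffected and 1.00% in affected offspring. That sum includes the joined Psmb5 with its high unaffected value, so the unaffected share depends on it. The summed FPKM of the 3 immunoproteasome genes alone was 11.1, 11.8 and 7.30 in the same order.

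The immunoproteasome is induced by interferon and serves antigen presentation, so genes of MHC class I antigen processing and of the interferon response were set beside it. Of the 14 listed, 8 had a mean FPKM of at least 1, and 3 of these, Bst2, Isg15 and H2-K1, were lower than in controls past the limit and 0 higher, where 11.5% of all loci were lower and 12.5% higher. Bst2, an antiviral membrane protein, was at 6.03 FPKM in controls, 3.58 in unaffected and 2.58 in affected offspring. Isg15, a ubiquitin-like protein, was at 2.51, 1.34 and 1.08 FPKM, and H2-K1, a class I heavy chain, at 3.63, 2.99 and 2.64 FPKM. Unlike most proteasome genes, all 3 were also below the control value in unaffected offspring, with log2 ratios of −0.75, −0.90 and −0.28. Against unaffected offspring Bst2 was lower, at −0.47, and Erap1, a peptide-trimming protease, was higher, at 0.49.

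Among 10 marker genes of microglia and leukocytes, 9 had a mean FPKM of at least 1 and 4 of these were lower in affected offspring than in controls and 0 higher, where 11.5% of all loci were lower. Against unaffected offspring 5 were lower and 1, Csf1r, was higher, where 18.4% and 20.6% of all loci were. The summed FPKM of the 9 was 59.5 in controls, 66.7 in unaffected and 47.1 in affected offspring. The 4 were the neutrophil genes S100a8 and S100a9, Aif1 and C1qa, while the microglial receptor Cx3cr1 was at 3.86, 3.65 and 3.69 FPKM and Csf1r at 4.94, 4.34 and 5.67. None of the 10 markers was at 0 in any group, with Ptprc the lowest at 0.227, 0.188 and 0.200 FPKM. Their part in the lower immunoproteasome values was not tested.

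**Figure D2:**
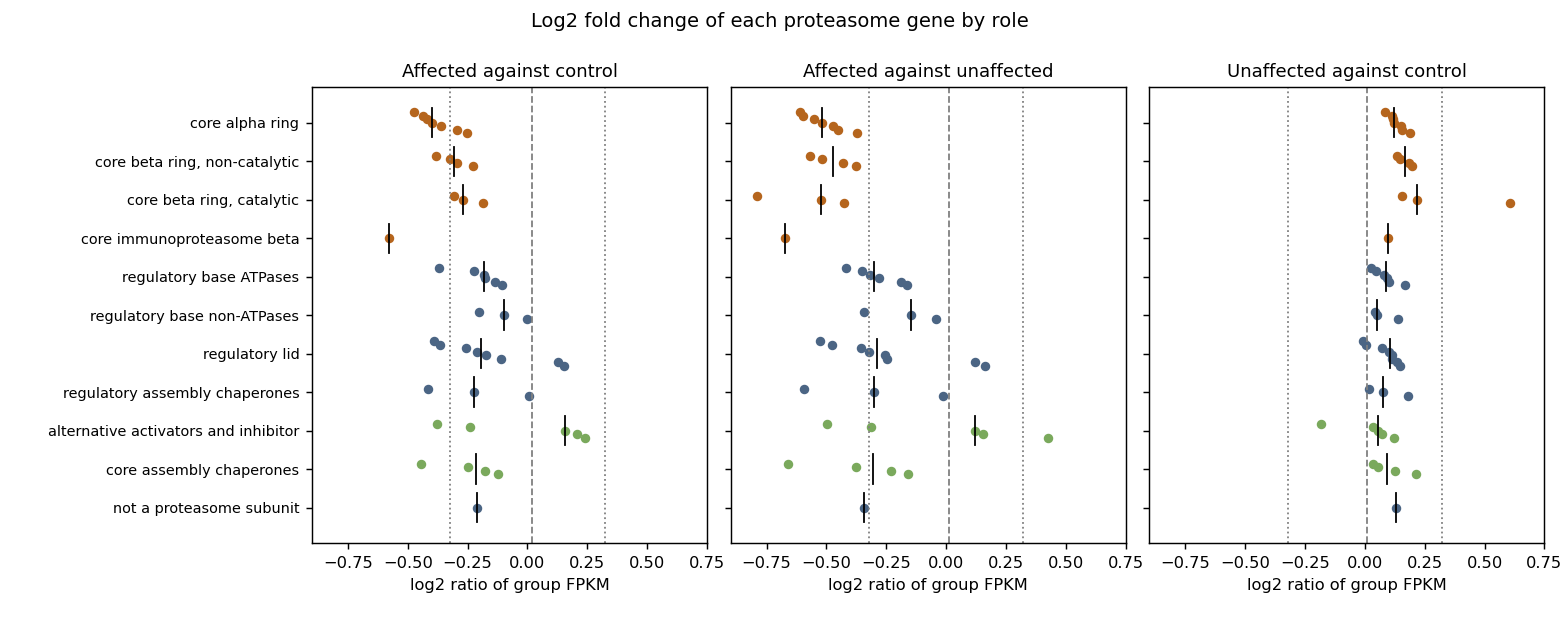
Log2 ratio of group FPKM for each of the 45 proteasome genes with a mean FPKM of at least 1, by role, in the 3 comparisons. Points are genes, short black lines the median of a role, the dashed line the median of all loci and dotted lines the limit of 0.32 in either direction. The medians of the core roles lie left of those of the regulatory roles in both comparisons with affected offspring, and Psmb5 stands apart in unaffected against control.

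The 6 ATPases of the base, which thread the substrate into the core, had a median closer to the control level than that of the core genes, with Psmc6 as far from it as several core genes. They ranged from 107 to 135 FPKM in controls and from 97.5 to 122 in affected offspring. Psmc6 was the only ATPase past the limit against controls, with 135 FPKM in controls, 139 in unaffected and 104 in affected offspring and a log2 ratio of −0.37. Psmc1, Psmc2, Psmc3, Psmc4 and Psmc5 lay between −0.11 and −0.23. Against unaffected offspring Psmc4, at −0.35, and Psmc6, at −0.42, were past the limit, and Psmc3, at −0.32, just missed it. The 1 and 2 genes past the limit make 16.7% and 33.3% of the 6, where 11.5% and 18.4% of all loci were lower. The median of the 6 was −0.18 against controls and −0.30 against unaffected offspring.

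Of the 3 other base subunits, the large scaffold proteins Psmd1 and Psmd2 differed least. Psmd2 was at 115 FPKM in controls, 119 in unaffected and 115 in affected offspring, and Psmd1 at 76.7, 79.5 and 71.7 FPKM. Psmd4, a ubiquitin receptor, was at 120, 132 and 104 FPKM. It passed the limit only against unaffected offspring, at −0.34, where 18.4% of all loci were lower.

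Among the 17 Psmc and Psmd genes of the finished regulatory particle, the most and the least abundant were both among the 8 lid genes. Psmd14, the enzyme that cleaves the ubiquitin chain from the substrate, was at 192 FPKM in controls, 211 in unaffected and 146 in affected offspring, with log2 ratios of −0.39 and −0.53. Psmd13 was at 104, 113 and 81.1 FPKM, at −0.36 against controls. These were the 2 of 8 lid genes past the limit in that comparison, where 11.5% of all loci were lower. Psmd6 and Psmd8 passed it against unaffected offspring alone, with 93.0 and 130 FPKM in affected offspring against 119 and 163. With these, 4 of the 8 were lower than in unaffected offspring, where 18.4% of all loci were. Psmd7 and Psmd12 were at −0.18 and −0.11 against controls. The structural lid genes Psmd3 and Psmd11 went the other way. Psmd3 was at 68.3 FPKM in controls, 67.8 in unaffected and 75.9 in affected offspring, at 0.15 and 0.16, and Psmd11 at 49.6, 49.8 and 54.2 FPKM, at 0.13 and 0.12, all within the limit. The ratio of Psmd14 to Psmd3 was 2.81 in controls, 3.11 in unaffected and 1.93 in affected offspring. The highest of the 17 genes, which do not include the lid subunit Shfm1, accordingly had 3.87, 4.23 and 2.70 times the FPKM of the lowest in the 3 groups.

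The regulatory chaperones, which hold the ATPases during assembly and leave the finished particle, did not move alike. Psmd10 was at 18.3 FPKM in controls, 20.7 in unaffected and 13.7 in affected offspring, with −0.42 against controls and −0.60 against unaffected offspring. Psmd9 was at 16.8, 17.7 and 14.4 FPKM. Psmd5 was at 27.6, 27.9 and 27.7 FPKM and differed by at most 0.02 on the log2 scale. All 3 stood below every gene of the finished particle in level, as did Psmc3ip at 21.3, 23.4 and 18.4 FPKM.

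The activators that cap the core in place of the regulatory particle had log2 ratios on both sides of 0 in affected offspring, and few passed the limit. Against controls Psme2 was lower and 0 were higher, and against unaffected offspring Psme2 was lower and Psme4 higher. These counts are near the shares of all loci, of which 11.5% were lower and 12.5% higher against controls and 18.4% and 20.6% against unaffected offspring. Psme1 and Psme2 form the ring activator linked to antigen processing and lie 2185 bases apart on chromosome 14. Psme1 was at 172 FPKM in controls, 181 in unaffected and 146 in affected offspring, and Psme2 at 79.7, 86.8 and 61.4 FPKM, with log2 ratios of −0.24 and −0.38 against controls. Their ratio was 2.16, 2.09 and 2.37 in the 3 groups. Psme3, the activator of the nucleus, was at 49.6, 50.8 and 55.3 FPKM, at 0.16 and 0.12. Psme4, a large single-chain activator, was at 12.2, 10.7 and 14.4 FPKM, with 0.24 against controls and 0.42 against unaffected offspring. Its coding sequence of 5529 bases is the longest of the 45 genes, and minus the median of loci of like length and level its log2 ratios were −0.11 and −0.06, below 0 and within the limit. Psmf1, which binds and inhibits the core particle, was at 14.4, 14.9 and 16.6 FPKM, at 0.21 and 0.15. Psme3, Psme4, Psmf1, Psmd3 and Psmd11 were thus the 5 genes above 0 in both comparisons with affected offspring. The locus of Psmf1 also holds the coding gene Tmem74b.

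The core assembly chaperones Psmg1 to Psmg4, which build the alpha ring, had a median log2 ratio of −0.21 against controls and −0.30 against unaffected offspring. Psmg4 was at 50.4 FPKM in controls, 58.5 in unaffected and 37.1 in affected offspring, with −0.44 and −0.66. Psmg3 was at 27.7, 30.3 and 23.3 FPKM, at −0.25 and −0.38. Psmg1 and Psmg2 were within the limit in both comparisons, at −0.12 and −0.18 against controls.

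Set side by side, the core genes differed more from the other groups than the regulatory genes. The median log2 ratio of the 15 core genes was −0.32 against controls and −0.52 against unaffected offspring, and that of the 21 regulatory genes −0.18 and −0.30, so that the medians differed by −0.14 and −0.22. All 15 core genes were below 0 in both comparisons. Against controls 7 of 15 core and 4 of 21 regulatory genes were lower past the limit, and against unaffected offspring 15 and 9. Of all loci 11.5% and 18.4% were lower in these comparisons. Between unaffected and control offspring the medians were 0.15 and 0.09, with the core above. The order unaffected, control, affected held for all 14 constitutive core genes and for 15 of the 17 genes of the finished regulatory particle, Psmd3 and Psmd11 being the exceptions.

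**Figure D3:**
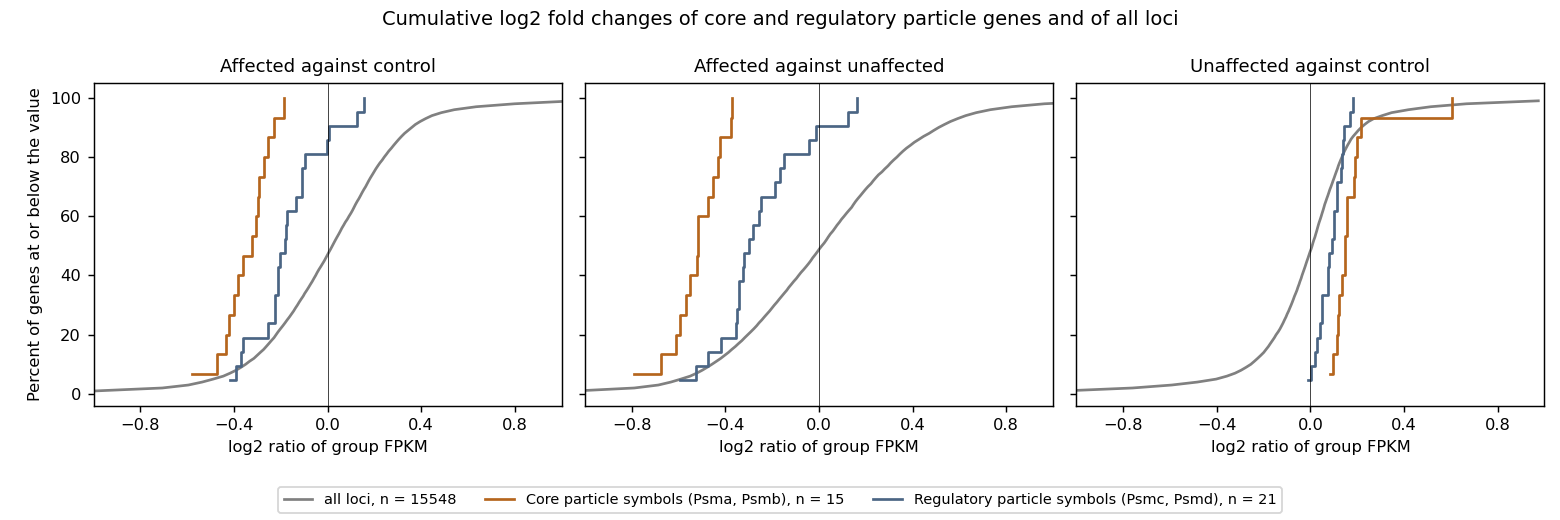
Cumulative percent of genes at or below a log2 ratio of group FPKM, for the 15 core genes, the 21 regulatory genes and all 15548 loci with a mean FPKM of at least 1, in the 3 comparisons. In both comparisons with affected offspring the core curve lies left of the regulatory curve and both lie left of all loci over most of their range (medians −0.32, −0.18 and 0.02 against controls).

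The core and regulatory genes also differ in length, and length went with the difference in the whole table. The longest annotated coding sequence was 603 to 831 bases, median 741, in the 14 constitutive core genes and 930 to 2859 bases, median 1254, in the 17 genes of the finished regulatory particle. Over the 45 genes, Spearman's rho between coding length and log2 ratio was 0.61 against controls, 0.62 against unaffected offspring and −0.59 between unaffected and control offspring. Over 11828, 11827 and 11829 loci with a coding length, which are not independent of each other, it was 0.59, 0.63 and −0.47. Short genes thus tended to be lower in affected offspring throughout the table. Within the 21 regulatory genes rho was 0.74 and 0.72 in the comparisons with affected offspring, and within the 15 core genes, which span little length, 0.07 and −0.08. The coding length was known for all 49 genes and for 76.1% of the expressed loci, or 95.1% of those with a single gene name.

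Loci of like length were therefore set beside the genes of each particle. The 1273 loci in the length range of the constitutive core had a median log2 ratio of −0.13 against controls and −0.22 against unaffected offspring. The 115 of these with a mean FPKM as high as the lowest constitutive core gene, which include the constitutive core genes other than the joined Psmb5, had −0.25 and −0.37, against −0.31 and −0.52 for the core. Of the 115, 27.8% were lower than in controls past the limit and 53.0% lower than in unaffected offspring, and of the 14 core genes 42.9% and 100%. For the regulatory particle, the 668 loci of like length and level had medians of 0.00 and −0.02, against −0.18 and −0.28 for its 17 genes, and 27 and 87 of them were lower, against 3 and 7 of the 17. The medians of both particles thus lay below those of the loci of like length and level. When the median of loci within 10% of the coding length and within 2-fold of the mean FPKM was taken from each ratio, a step chosen after the data were seen, the core median became −0.12 against controls and −0.21 against unaffected offspring and the regulatory median −0.13 and −0.24. The difference between the particles was then 0.01 and 0.03 in place of −0.14 and −0.22. By the same step Psmd3 was at 0.13 in both comparisons, Psmd11 at 0.13 and 0.15, and Psmb5 at 0.03 and −0.47. Psme3 was at 0.32 and 0.37 and Psmf1 at 0.31 and 0.36, both past the limit against unaffected offspring, so that not every gene lay below loci like it. The part of length in the values was not tested.

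**Figure D4:**
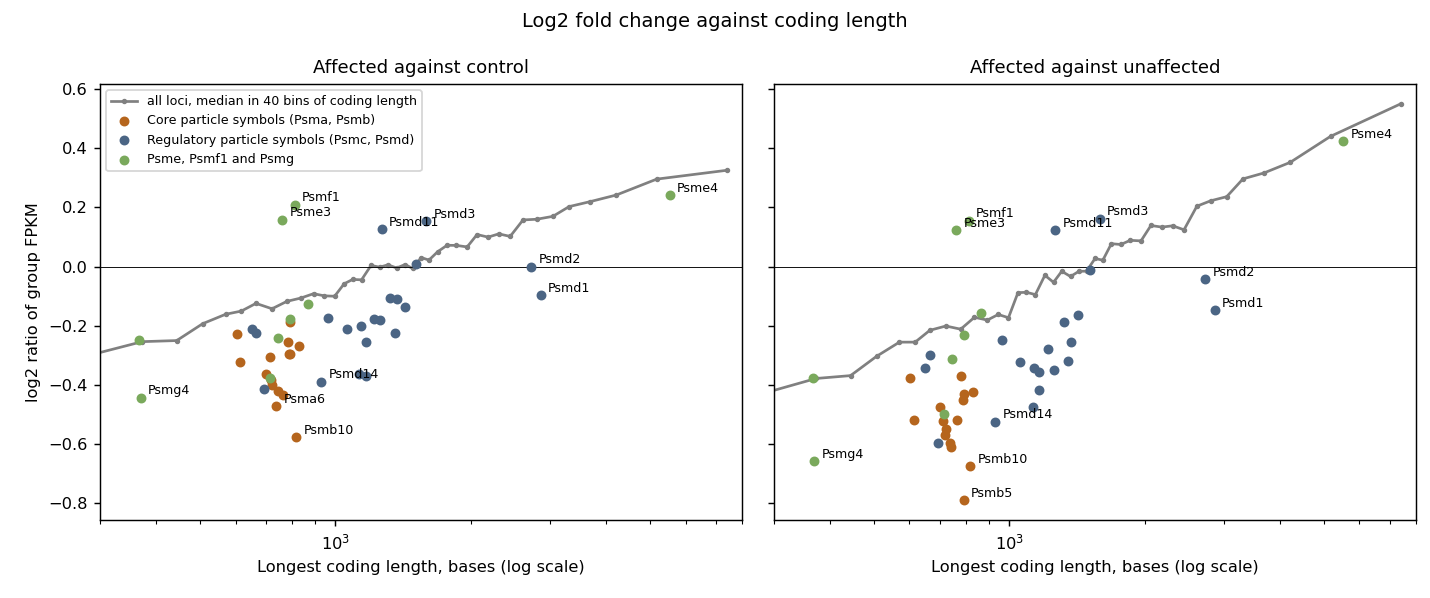
Log2 ratio of group FPKM against the longest annotated coding length, on a log axis in bases, for the 45 proteasome genes, with the grey line giving the median of all loci in 40 bins of length. The line rises with length in both comparisons (from −0.31 to 0.33 against controls), most proteasome genes lie below it, and Psmd3, Psmd11, Psme3 and Psmf1 lie farthest above it.

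For comparison with other assemblies, the 78 ribosomal protein genes had a median log2 ratio of −0.40 against controls and −0.56 against unaffected offspring, with 59 and 72 of them lower past the limit and 0 higher. The 8 genes of the chaperonin, a folding machine, had −0.24 and −0.34, with 0 and 5 lower. In these comparisons 11.5% and 18.4% of all loci were lower. The constitutive core, at −0.31 and −0.52, lay between these 2 assemblies, and the finished regulatory particle, at −0.18 and −0.28, differed less than either. These medians were not adjusted for length or level.

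Genes for proteins that bind the proteasome or help to build it had a median closer to the control level. Of 12 listed genes 11 were found, all above a mean FPKM of 1, and their median log2 ratio was −0.10 against controls and −0.14 against unaffected offspring. Pomp, the maturation factor of the beta ring, was at 266 FPKM in controls, 284 in unaffected and 202 in affected offspring and was the only gene of the list past the limit against controls, at −0.40. Shfm1, the smallest lid subunit, was at 394, 425 and 332 FPKM, and Zfand2a at 16.2, 17.7 and 13.8 FPKM, and both passed it against unaffected offspring, at −0.35 and −0.36. The ubiquitin receptor Adrm1 and the deubiquitinases Uchl5 and Usp14, which bind the base, had log2 ratios between −0.15 and 0.10 in both comparisons with affected offspring. None of the 11 was higher past the limit, and the 1 and 3 genes that were lower stand beside 11.5% and 18.4% of all loci, so the count against controls is near the background.

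Of 9 genes that control proteasome transcription, with a mean FPKM of at least 1, 0 were lower past the limit. The shares of all loci lower were 11.5% against controls and 18.4% against unaffected offspring, so 0 among so few genes is near the background. None was higher against controls, where 12.5% of all loci were. Against unaffected offspring 1, Stat3, was higher, where 20.6% of all loci were, with 5.79 FPKM in controls, 5.40 in unaffected and 6.92 in affected offspring. Nfe2l1 was at 26.7, 24.3 and 30.3 FPKM, with 0.18 against controls and 0.32 against unaffected offspring, just short of the limit, while its relative Nfe2l2 was at 6.49, 6.47 and 6.33 FPKM. The CCAAT-binding subunits Nfya, Nfyb and Nfyc lay between 0.05 and 0.17 against controls. Ddi2, the protease that processes Nfe2l1, was at 7.23, 7.50 and 8.59 FPKM as a joined locus with Rsc1a1, and its paralog Ddi1 was listed at 0 in every group.

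The genes that supply and deliver substrates went in both directions. Rps27a, which encodes ubiquitin fused to a ribosomal protein, was lower past the limit in affected than in unaffected offspring, at −0.64, and than in controls, at −0.50. The polyubiquitin gene Ubb, in a joined locus with Gm1821, was at −0.12 and the activating enzyme Uba1 at 0.09 against controls. Of the 11 genes for substrate delivery, 0 were lower, where 11.5% of all loci were against controls and 18.4% against unaffected offspring. Of the same 11, 2 were higher against controls and 4 against unaffected offspring, where 12.5% and 20.6% of all loci were higher. The count of higher genes against controls is thus near the background. Ubqln2, a shuttle factor, was at 72.0 FPKM in controls, 63.6 in unaffected and 95.03 in affected offspring, at 0.40 and 0.58. Bag6, a chaperone of mislocalised proteins, was at 94.0, 89.4 and 120 FPKM, at 0.35 and 0.42. Vcp, the ATPase that extracts ubiquitinated proteins, was at 145, 128 and 178 FPKM and its cofactor Nploc4 at 13.2, 12.4 and 16.1 FPKM, at 0.48 and 0.37 against unaffected offspring.

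The labelled tissue was checked with markers, and other cell types were counted. All 10 markers of cortical neurons and progenitors were above 10 FPKM in each group, and 5 were higher than in controls past the limit in affected offspring, where 12.5% of all loci were. The 5 erythroid loci with a mean FPKM of at least 1 were all lower in affected than in unaffected offspring and all higher in unaffected than in control offspring, with summed FPKM of 457 in controls, 598 in unaffected and 373 in affected offspring. Of all loci 18.4% were lower and 5.52% higher in these comparisons. Of the 5 loci, 2 carry the same joined names, Hba-a1 and Hba-a2, and at 200 and 236 FPKM in controls they make most of the sum. The listed genes Hbb-bt and Hbb-bs were not found. Against controls 0 of the 5 erythroid loci were lower in affected offspring and 1, Hbb-y, was higher, at 1.42. Of 8 endothelial genes 2 were higher than in controls, of 5 choroid plexus genes 1, and of 6 meningeal genes 1 was lower, where 12.5% of all loci were higher and 11.5% lower. Against unaffected offspring 4 of the 8 endothelial genes were higher, where 20.6% of all loci were. The part of cell composition in the proteasome values was not tested.

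The 49 genes lie on 16 chromosomes, so that they share no single region, and the pairs within 20 kilobases were Psmb5 with Psmb11 and Psme1 with Psme2 on chromosome 14 and Psmb9 with Psmb8 on chromosome 17. In mm10, 14 of the 49 share exon bases with another annotated gene, most on the opposite strand, such as Psmb7 with Nek6, Psme1 with Emc9, Psmc3 with Slc39a13 and Psmd13 with Sirt3. Whether fragments were counted by strand is not given in the sources used here. The locus of Psmb4 spans 54382 bases and holds the coding gene Pogz, and that of Psmd1 holds Htr2b, so the values of these loci depend on how fragments were assigned between the genes.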

How the data were processed

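RNA-seq libraries of 9 fetuses, 3 per group, were made with the Illumina TruSeq kit. Alignment to mm10 is described once with STAR and once with Bowtie and TopHat, and the submitters' processing notes name Bowtie2 2.2.4.0, Cufflinks and Cuffdiff. The authors deposited FPKM per locus and group, and the columns with values of single animals numbered 0. The deposited log2 fold changes, test statistics, p-values and q-values are the authors' comparisons and were not used. Log2 ratios were computed from FPKM without a pseudocount, over loci with a mean FPKM of at least 1, and called past a ratio of 5 to 4. Coding lengths came from GENCODE and promoters from RefSeq (GRCm38.p6). Starts in the table count from 0 and were raised by 1.

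Members, roles and gene lists were chosen with earlier results of these data known. Full values were given for catalytic subunits, activators and, against controls and against unaffected offspring, the 3 largest rises and falls; further members were named to account for all. List genes were named when past the limit in a comparison with affected offspring, and others, with the marker genes, after their values were seen. Roles and symbols were matched in Python 3.11.15 with pandas 2.3.3 and numpy 2.4.6, and the calculations were tested on simulated data. Depth per library is not given in the table. Alternatives covered pseudocount, filter, centring, limit, joined loci, subunit sets, length and level. Some genes of the lists are not reported here.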

Additional observations from a re-analysis of the deposited data

How the results depend on the processing

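No paired analysis was possible because the table holds no values of single animals, and for the same reason leaving out each replicate could not be run. A limit of 1.5-fold left 0 genes lower than in controls, 6 lower than in unaffected offspring and 0 higher. Near this limit, a log2 ratio of −0.60 was percentile 3 of all loci against controls. Against unaffected offspring −0.59 and 0.59 were percentiles 5 and 93. A limit of 1.1-fold gave 33 lower and 4 higher against controls, and 3 higher against unaffected offspring. Between unaffected and control offspring it gave 1 lower and 14 higher. Near the limit of 1.1-fold, −0.14 and 0.14 were percentiles 29 and 67 of all loci against controls. The value 0.14 was percentile 63 against unaffected offspring. Between unaffected and control offspring −0.14 and 0.14 were percentiles 21 and 81. Without a filter on low values 2 genes were higher in unaffected than in control offspring, and without joined loci 0. The corrections for length and level were chosen after seeing the data. With the median of loci of like coding length taken off, the core median was −0.18 against controls and −0.31 against unaffected offspring, and the difference of core and regulatory medians −0.022 and −0.072. With loci of like length and level, the core median was −0.12 and −0.21, and 0.041 between unaffected and control offspring, and the difference of the medians turned to 0.013, 0.026 and −0.014. This comparison used 28 to 405 loci per gene, the gene itself included except for the joined Psmb5. The regulatory median stayed within 0.1 on the log2 scale under every alternative run. The core and regulatory medians moved by less than 0.1 on the log2 scale with pseudocounts of 0.1 and 1, centring on all loci and a mean FPKM of at least 5. The ratios of FPKM medians were run under the filters, without joined loci and for the constitutive core against the finished regulatory particle, and moved by less than 1.5-fold, and of the named genes Psmb8 and Psmb9 moved by more than 0.1 under pseudocounts. Length and level moved several more, and turned Psme4 from 0.24 to −0.11 against controls and from 0.42 to −0.06 against unaffected offspring, and Psmb5 from −0.19 to 0.03 against controls. Depth is unknown, so the precision of the genes under 1 FPKM, Psmb8, Psmb9, Psma8 and Psmb11, is too.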
